A study of Mus musculus with 9 samples.

Results

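Podocalyxin (Podxl), podoplanin (Pdpn), the sialomucins Cd34, endomucin (Emcn) and Cd164, and the linkers that tie podocalyxin to actin, ezrin (Ezr), Slc9a3r1 (NHERF1), Slc9a3r2 (NHERF2) and Clic5, were followed in mouse glomeruli whose podocytes lack Cosmc. The 9 genes were taken by symbol from a table of 16867 genes, all 9 were listed, and all 9 passed the filter on low values. Poly(A) RNA came from glomeruli isolated with magnetic beads from 9 male C57BL/6 mice. Podo-Cre and an allele without flox (Podo-Cre; Cosmc Y/+) were present in controls 1, 4 and 5, aged 35, 30 and 30 days. Control 2 was Cosmc Y/flox without Cre at 34 days, and control 3 was Cosmc Y/+ without Cre at 31 days. Cosmc KO 1 to 4 were Podo-Cre; Cosmc Y/flox at 35, 34, 31 and 30 days. The labels do not say which promoter drives Cre or which part of Cosmc is floxed, and the preparation holds endothelial, mesangial, parietal and tubule cells in which no deletion is stated.

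Podocalyxin is the main sialoprotein of the podocyte surface, a mucin-like protein whose dense, negatively charged O-glycans keep foot processes apart. It is a relative of Cd34, and it is anchored through NHERF2 and ezrin to the actin cytoskeleton, with Clic5 in the same complex. Podoplanin is a smaller mucin-type protein of podocytes, and Cd34 and endomucin are O-glycosylated proteins of the endothelium. Cosmc (symbol C1galt1c1) is the chaperone that core 1 O-glycan synthesis needs, so its loss truncates the O-glycans of such proteins. RNA counts measure the transcripts and not the glycans.

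The labels were checked on the deleted gene first. C1galt1c1 had normalized read counts of 1552, 1508, 1487, 1385 and 1409 in controls 1 to 5, against 1123, 939, 1030 and 751 in Cosmc KO 1 to 4. The groups did not overlap, and C1galt1c1 was lower in Cosmc KO (log2 fold change -0.63 ± 0.11 SE, limma adjusted p = 0.0111).

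Where a promoter sequence was in the reference table (8 of the 9 genes, from RefSeq on GRCm38.p6, all but Podxl), the stretch from 250 bases before to 50 bases after the annotated start was read. The promoters of Pdpn and Clic5, genes whose values moved with Podxl across libraries, are printed beside those of the endothelial genes Cd34 and Emcn, whose values did not. Capitals mark the GC box GGGCGG, the WT1 and EGR type sequence GNGTGGGNG and the ETS type sequence AGGAAG, each searched on both strands. Where matches overlap they run together.
Pdpn, chr4:143299515-143299814, minus strand: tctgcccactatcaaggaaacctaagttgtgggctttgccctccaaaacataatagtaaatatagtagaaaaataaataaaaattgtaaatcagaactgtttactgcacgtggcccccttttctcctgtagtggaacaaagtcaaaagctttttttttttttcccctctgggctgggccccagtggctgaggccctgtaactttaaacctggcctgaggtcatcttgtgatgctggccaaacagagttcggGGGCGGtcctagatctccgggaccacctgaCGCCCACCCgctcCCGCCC
Clic5, chr17:44188322-44188621, plus strand: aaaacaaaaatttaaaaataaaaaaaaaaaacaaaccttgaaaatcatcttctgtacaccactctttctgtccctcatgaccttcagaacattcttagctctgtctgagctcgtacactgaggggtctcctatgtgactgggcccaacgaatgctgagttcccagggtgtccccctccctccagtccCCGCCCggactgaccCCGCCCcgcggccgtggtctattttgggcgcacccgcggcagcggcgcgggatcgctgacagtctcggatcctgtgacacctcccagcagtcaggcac
Cd34, chr1:194938571-194938870, plus strand: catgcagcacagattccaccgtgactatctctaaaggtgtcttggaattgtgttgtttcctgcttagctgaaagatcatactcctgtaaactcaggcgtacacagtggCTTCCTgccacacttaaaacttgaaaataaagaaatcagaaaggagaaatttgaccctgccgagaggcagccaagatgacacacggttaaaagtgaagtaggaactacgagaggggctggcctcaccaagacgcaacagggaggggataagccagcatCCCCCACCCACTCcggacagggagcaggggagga
Emcn, chr3:137340828-137341127, plus strand: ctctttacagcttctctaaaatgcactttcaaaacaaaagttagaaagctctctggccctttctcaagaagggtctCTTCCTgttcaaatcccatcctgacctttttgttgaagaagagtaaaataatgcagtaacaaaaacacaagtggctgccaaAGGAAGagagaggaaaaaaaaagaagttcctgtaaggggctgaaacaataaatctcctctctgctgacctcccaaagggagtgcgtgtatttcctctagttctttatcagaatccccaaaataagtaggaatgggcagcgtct
The Pdpn stretch held 2 GC boxes and 1 match to the WT1 and EGR type sequence, and the Clic5 stretch held 2 GC boxes only. Cd34 had 2 overlapping matches to the WT1 and EGR type sequence and 1 to the ETS type, whereas Emcn had 2 ETS type matches only. Among the stretches not printed, Ezr held 2 GC boxes, and Cd164 and Slc9a3r1 held 4 each. For Slc9a3r2 the stretch from 24650256 held 4 and that from 24644908 held 0. ETS type matches were also found in Cd164 (1), Slc9a3r1 (2) and the Slc9a3r2 stretch from 24644908 (3). The last also held 1 match to the WT1 and EGR type sequence. Thus GC boxes were not limited to genes whose values moved with Podxl, nor ETS type matches to Cd34 and Emcn. Among 32851 promoter stretches of the same length, 35.7% held a GC box, 14.3% the WT1 and EGR type sequence and 35.4% the ETS type. The stretches of Pdpn, Clic5 and Emcn were 48.7%, 54.3% and 41.0% G or C, beside a median of 52.7% over all. A match is a run of letters and was not tested as a binding site.

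In control glomeruli podocalyxin was among the most abundant transcripts. Podxl ranked 2 of 16867 genes by normalized read count, with 429580 ± 71397 (SD, n = 5). It took 1.23%, 0.921%, 0.870%, 0.992% and 1.12% of all recovered reads in controls 1 to 5. Its share was 0.959%, 0.368%, 0.522% and 0.639% in Cosmc KO 1 to 4, so that 3 of the 4 lay below all controls. The exact 95% binomial interval of the lowest share ran from 0.366% to 0.370%, and such intervals cover counting error only. The 9 genes together made up 1.43% to 1.83% of the reads in controls and 0.756% to 1.55% in Cosmc KO.

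Per kb of exon sequence, Podxl again stood first among the 9 in controls, with 78276 ± 13010 normalized counts per kb (SD, n = 5). The linkers Slc9a3r2 and Clic5 followed with 15380 ± 2655 and 9649 ± 1245 per kb, and endomucin with 7877 ± 602. Ezr had 5989 ± 502, Pdpn 3575 ± 406, Cd34 2958 ± 335, Cd164 2821 ± 81.7 and Slc9a3r1 2460 ± 209 normalized counts per kb. Thus NHERF2 had a higher level per kb than NHERF1, which in kidney is best known from the proximal tubule brush border. Which cells of the preparation held either transcript was not tested. Neighbours in this order whose control libraries overlapped were Clic5 and Emcn, Pdpn and Cd34, and Cd34 and Cd164. Exon lengths are the union of all GENCODE M21 transcripts, from 1817 bases for Pdpn to 8782 for Clic5, and the annotation behind the deposited counts is not given in the sources used here.

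**Figure D1:**
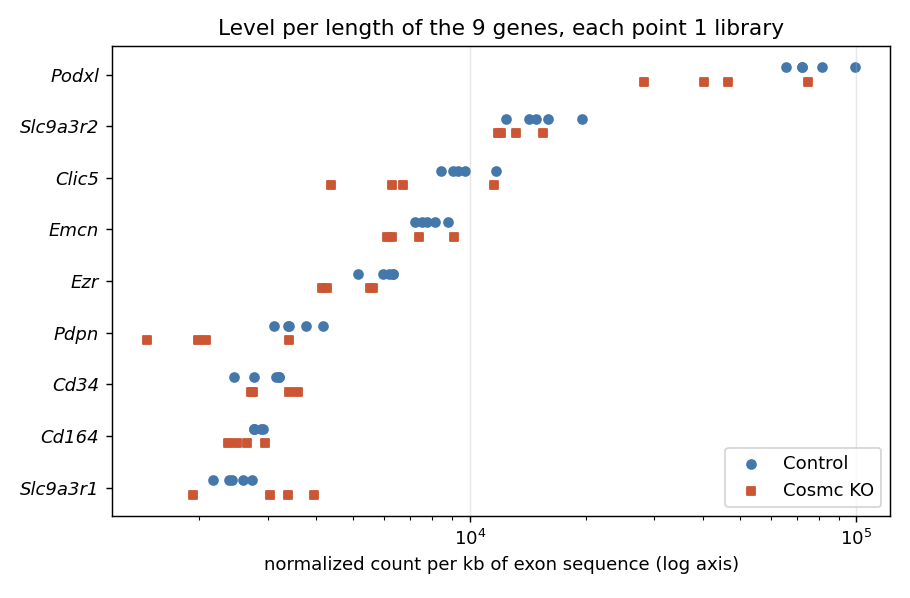
Normalized read count per kb of exon sequence (log axis) for the 9 genes, each point 1 library, with 5 control libraries as circles and 4 Cosmc KO libraries as squares. Podxl lies highest in every library, and 3 of its 4 Cosmc KO points lie left of all control points, as do 3 of those of Pdpn and Clic5.

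None of the 9 genes differed between the groups at an adjusted p under 0.05 when all 9 libraries were compared (limma on log2(value + 1), adjusted over 16764 genes). In the same test 7.74% of all genes were called, 4.16% higher and 3.58% lower in Cosmc KO. By unadjusted p under 0.05, 3 of the 9 were lower (Podxl, Pdpn and Ezr) and 0 higher. Of all 16764 genes, 2434 were lower and 2169 higher at that threshold. DESeq2 called Podxl and Pdpn lower, as it did 7.42% of all genes, and without control 3 it called the same pair among 5.66%. With TMM scaling limma called Pdpn, where 5.11% of all genes were called lower. By edgeR 0 of the 9 were called, beside 8.7% of all genes in either direction. The median log2 fold change of the 9 was -0.22, beside 0.00 over all genes tested. The groups of all 9 genes overlapped, whereas 11.9% of all genes had groups that did not overlap. Since whole glomeruli were sequenced, fewer cells of a type and less RNA per cell cannot be told apart.

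Podxl, on the minus strand of chromosome 6 (31519488 to 31563981, GRCm38), had the largest difference of the 9. Its normalized counts were 544549, 396450, 361075, 397485 and 448339 in controls 1 to 5, against 410919, 155105, 221527 and 255630 in Cosmc KO 1 to 4. Cosmc KO 1 thus read like a control, and Cosmc KO 2, 3 and 4 lay below every control. The level in Cosmc KO was 0.577 times that of controls, with a 95% interval of 0.356 to 0.933 from limma (log2 fold change -0.79 ± 0.31 SE, adjusted p = 0.139). Within the pairs of animals that share a number and an age, Podxl differed by -0.41, -1.35, -0.70 and -0.64 on the log2 scale in pairs 1 to 4. It was lower in all 4 pairs and passed the test in the fit blocked on the replicate number (limma adjusted p = 0.0338). In that fit, which leaves out control 5, 7.09% of all genes were called lower. Control 5 was 30 days old, as were control 4 and Cosmc KO 4, so the number alone set pair 4. Correlations between libraries did not set the pairs apart.

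Pdpn (chromosome 4, 143267431 to 143299564, minus strand), which binds ezrin through its short cytoplasmic tail, gave the same order of libraries among Cosmc KO. Counts were 7583, 6166, 5679, 6192 and 6859 in controls 1 to 5, against 6199, 2661, 3592 and 3785 in Cosmc KO 1 to 4. Cosmc KO 1 lay inside the control range and the other 3 below it. The level in Cosmc KO was 0.599 times that of controls (95% interval 0.436 to 0.822, limma adjusted p = 0.0561). The paired differences were -0.29, -1.21, -0.66 and -0.71, lower in all 4 pairs, with a limma adjusted p of 0.00917 in the blocked fit. The authors' deposited table calls both genes, with log2 fold changes of -0.72 for Podxl and -0.68 for Pdpn (DESeq2 adjusted p = 0.0389 and 0.0248), and 7.42% of its genes are called lower. These values repeat the DESeq2 result given above, from the same counts, and are not separate support.

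Of the 9 libraries left out 1 at a time in the unblocked limma test, only Cosmc KO 1 gave a call. Without Cosmc KO 1, limma called Podxl (-1.04 ± 0.28, adjusted p = 0.0234) and Pdpn (-0.97 ± 0.13, adjusted p = 0.0027), but in that fit 14.6% of all genes were called lower. With Cosmc KO 2 and 3 left out together the differences were -0.39 and -0.42 (limma adjusted p = 0.698 and 0.374), with 1.82% of all genes called. Against the 3 Cre-carrying controls alone they were -0.91 and -0.82 (limma adjusted p = 0.221 and 0.132), with 2.61% called.

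**Figure D2:**
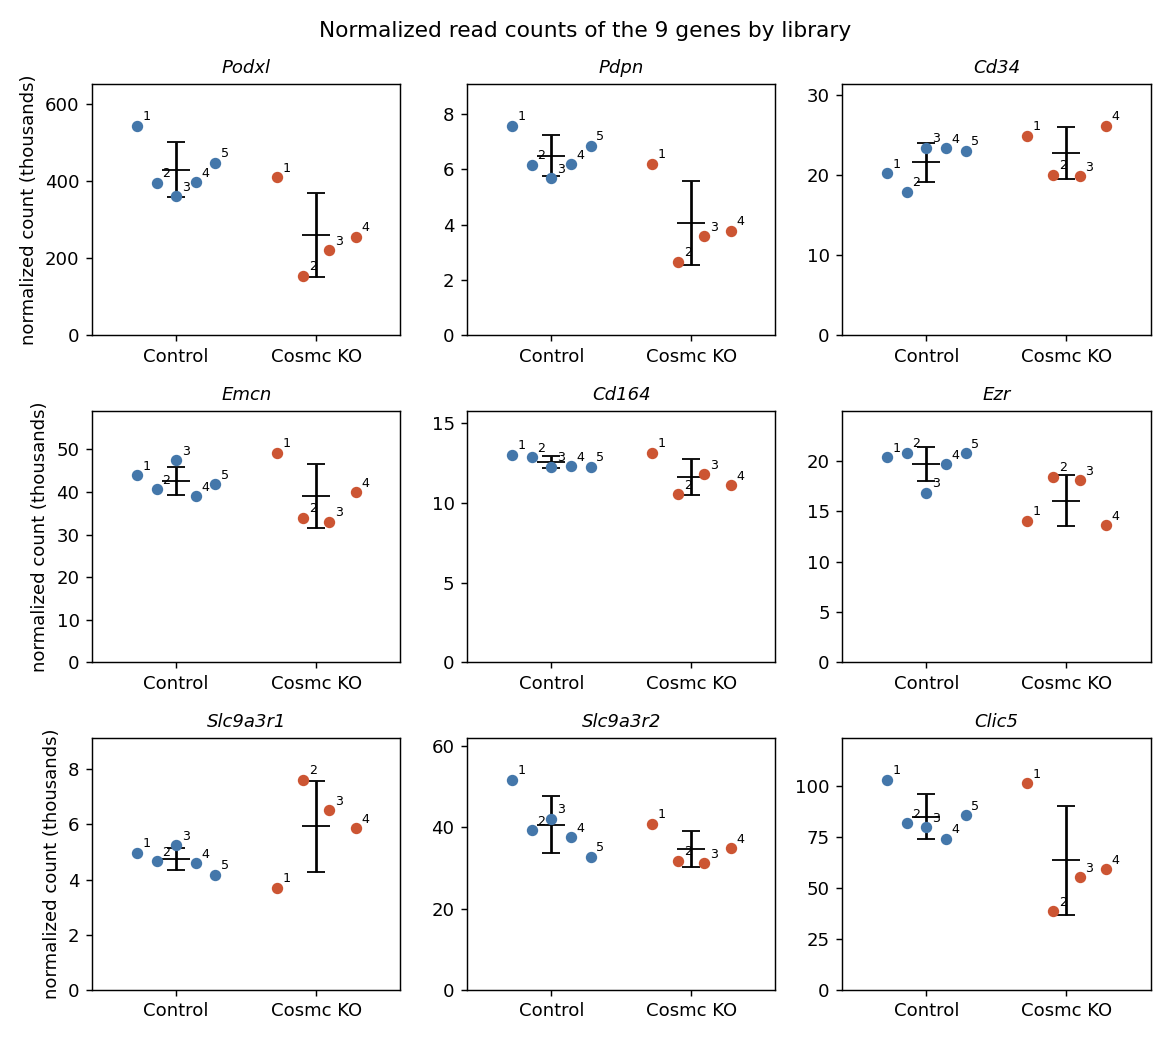
Normalized read counts (linear axes from 0, scale named on each axis) for each gene, with 1 point per library labelled by its number, and the mean ± SD of 5 controls and 4 Cosmc KO as bars. Cosmc KO 1 lies within the control range for Podxl, Pdpn and Clic5, while Cosmc KO 2 to 4 lie below it, and for Slc9a3r1 Cosmc KO 2 to 4 lie above all controls.

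Other podocyte transcripts moved in the same libraries. Of 20 podocyte markers 12 were lower, 0 higher and 8 did not pass (median log2 fold change -1.01). Among those called were Thsd7a (-1.91), the phospholipase gene Plce1 (-1.45), the semaphorin gene Sema3g (-1.44) and the guidance receptor gene Robo2 (-1.40). The count of 12 was 17 without Cosmc KO 1, 0 without Cosmc KO 3, and 4 to 8 without any other single library. The calls over all 16764 genes shifted as well. With all libraries 600 genes were lower, beside 2445 without Cosmc KO 1 and 175 without Cosmc KO 3. Without any other single library 223 to 348 were lower. The summed podocyte marker count ranged from 850510 to 1229950 in controls and from 322607 to 870187 in Cosmc KO, and no marker was at 0. The mean log2 level of the markers was 15.12, 14.58, 14.53, 14.69 and 14.92 in controls 1 to 5, against 14.49, 13.10, 13.66 and 14.05 in Cosmc KO 1 to 4.

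Set against the mean of these markers within each library, Podxl was not lower in Cosmc KO. The markers were not alike. Nphs1 (-0.63), Cd2ap (-0.56), Kirrel (-0.49), Tcf21 (-0.30) and Cdkn1c (-0.24) fell less than Podxl (-0.79), and Npnt rose (0.16). All other markers of the list fell more than Podxl. The log2 level of Podxl minus the marker mean was 3.94, 4.02, 3.93, 3.91 and 3.86 in controls 1 to 5, against 4.15, 4.15, 4.10 and 3.91 in Cosmc KO 1 to 4. Among Cosmc KO, 3 libraries lay above all controls and 0 below. For Pdpn the same difference averaged -2.11 ± 0.09 (SD, n = 5) in controls and -1.91 ± 0.19 (SD, n = 4) in Cosmc KO. For Clic5 it averaged 1.59 ± 0.14 and 2.04 ± 0.16, and all 4 Cosmc KO libraries lay above all controls. These differences were not tested and rest on a marker list that itself differs between the groups.

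Tubule transcripts ran the opposite way across libraries. The log2 fold change was positive for all 15 proximal tubule markers (median 1.44) and 0 of 15 passed the test in limma and edgeR, beside 4 at an unadjusted p under 0.05 in limma and 3 called by DESeq2. In the fit blocked on the replicate number 14 of the 15 were called higher, and without Cosmc KO 1 also 14. Of all 16764 genes, these fits called 1601 and 2439 higher, against 698 in the main test. DESeq2 called 1447 of 16867 genes higher. The most abundant tubule markers were Gpx3 and Slc34a1, which read 82999 ± 48778 and 16730 ± 10975 in controls and 243757 ± 176051 and 51939 ± 37230 in Cosmc KO (SD). The summed tubule count ranged from 50520 to 247194 in controls and from 79470 to 713314 in Cosmc KO, with no marker at 0. The tubule level on the log2 scale was 10.752, 12.567, 12.497, 11.715 and 10.199 in controls 1 to 5, against 11.0005, 13.997, 13.934 and 12.944 in Cosmc KO 1 to 4. Cosmc KO 1 was thus inside the control range, and Cosmc KO 2, 3 and 4 lay above it. With this level as a covariate the difference was -0.38 for Podxl and -0.39 for Pdpn (limma adjusted p = 0.538 and 0.156), and 4.78% of all genes were called. The part that tubule content plays in the lower Podxl and Pdpn counts was not tested.

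**Figure D3:**
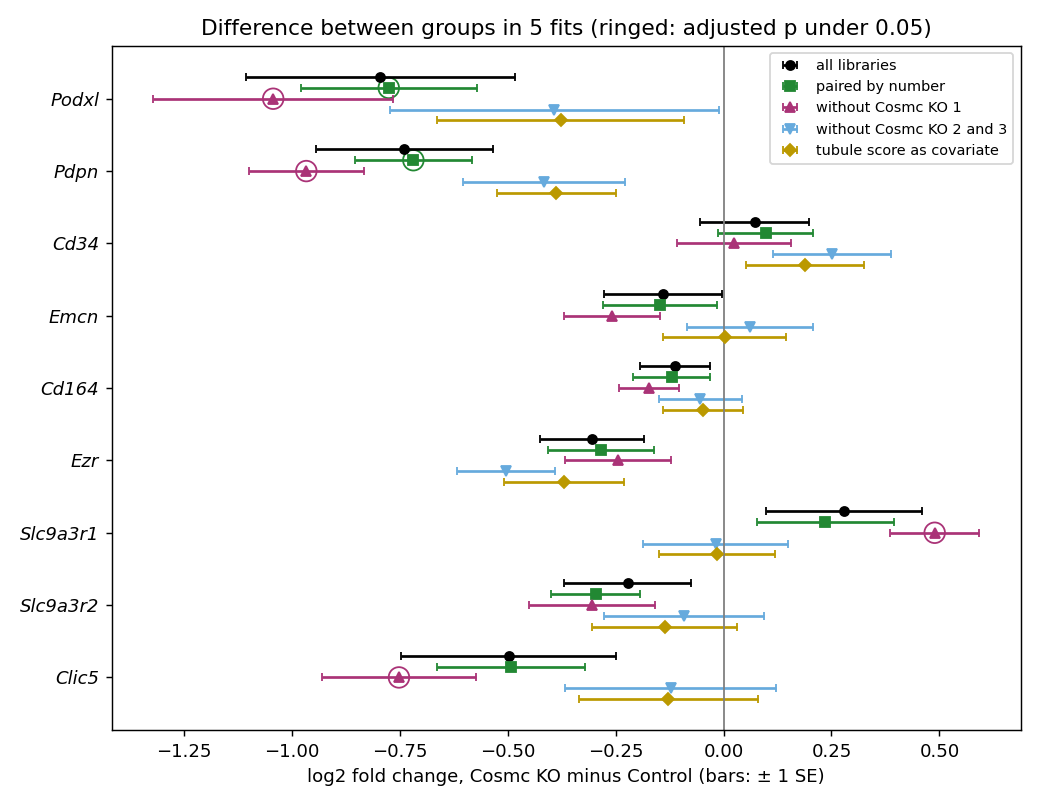
Log2 fold change, Cosmc KO minus control, with bars of 1 SE, for each gene in 5 limma fits; rings mark an adjusted p under 0.05. Rings appear for Podxl and Pdpn in the paired fit and without Cosmc KO 1, and for Slc9a3r1 and Clic5 without Cosmc KO 1 only, while Slc9a3r1 and Emcn cross 0 without Cosmc KO 2 and 3 and with the tubule level as a covariate.

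The linkers of podocalyxin did not all share its pattern. Clic5 (chromosome 17, 44188584 to 44280172, plus strand), a chloride channel family protein that binds ezrin in foot processes, was the closest of the 4. Its counts were 102817, 81737, 79640, 73968 and 85509 in controls 1 to 5, against 101178, 38331, 55184 and 59115 in Cosmc KO 1 to 4. Again Cosmc KO 1 read like a control and the other 3 lay below every control. The log2 fold change was -0.50 ± 0.25 (limma adjusted p = 0.221, 95% interval -1.05 to 0.06), and without Cosmc KO 1 it was -0.75 ± 0.18 (limma adjusted p = 0.0155).

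Slc9a3r2 (chromosome 17, 24639286 to 24650327, minus strand), the NHERF adaptor whose PDZ domains hold the podocalyxin tail, had a smaller difference. Controls 1 to 5 read 51711, 39286, 42096, 37595 and 32786, and Cosmc KO 1 to 4 read 40918, 31782, 31238 and 34834. Only Cosmc KO 2 and 3 lay below all controls, and control 5 was nearly as low. The log2 fold change was -0.22 ± 0.15 (limma adjusted p = 0.341, 95% interval -0.55 to 0.10), and all 4 paired differences were negative, from -0.43 to -0.11.

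Ezr (chromosome 17, 6738041 to 6782784, minus strand), the ERM protein that bridges NHERF adaptors to actin filaments, was lowest in other libraries than Podxl. Its counts were 20385, 20817, 16862, 19680 and 20774 in controls 1 to 5, against 14061, 18444, 18115 and 13649 in Cosmc KO 1 to 4. The lowest values were those of Cosmc KO 1 and 4, and Cosmc KO 2 and 3, which had the lowest Podxl counts, lay inside the control range. That range reached down to them only through control 3, and every other control read 19680 or more. Without control 3 the log2 fold change of Ezr was -0.36 ± 0.12 (limma adjusted p = 0.126). The level in Cosmc KO was 0.810 times that of controls (95% interval 0.673 to 0.976, limma adjusted p = 0.141). With Cosmc KO 2 and 3 left out together the log2 fold change was -0.50 ± 0.11 (limma adjusted p = 0.0775), and with the tubule level as a covariate -0.37 ± 0.14 (limma adjusted p = 0.180). Exons of Sytl3 on the opposite strand, with a mean count of 22.9, overlap the end of Ezr.

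Slc9a3r1 (chromosome 11, 115163341 to 115181181, plus strand) moved the other way in 3 libraries. Controls 1 to 5 read 4980, 4670, 5248, 4601 and 4183, and Cosmc KO 1 to 4 read 3711, 7620, 6524 and 5858. Cosmc KO 1 lay below all controls and Cosmc KO 2, 3 and 4 above them. Among the Cosmc KO libraries alone the counts ran in the order of the tubule level. The tubule level of Cosmc KO 1 (11.0005) was inside the control range. Control 1, at a tubule level of 10.752, read higher than control 2 at 12.567. The log2 fold change was 0.28 ± 0.18 (limma adjusted p = 0.329, 95% interval -0.12 to 0.68). Without Cosmc KO 1 it was 0.49 ± 0.10 (limma adjusted p = 0.0105), a fit in which 14.5% of all genes were called higher. Without Cosmc KO 2 and 3 it was -0.02, and with the tubule level as a covariate -0.02 (limma adjusted p = 0.975 and 0.969). The part of tubule content in the Slc9a3r1 counts was not tested further.

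Ratios to Podxl within a library do not depend on how libraries were scaled, and 5 were compared by a two-sided exact permutation test over 126 splits, with p-values adjusted over the 5. The log2 ratio of Pdpn to Podxl was nearly constant. It was -6.17, -6.01, -5.99, -6.00 and -6.03 in controls 1 to 5, against -6.05, -5.86, -5.95 and -6.08 in Cosmc KO 1 to 4. The group means differed by 0.05 (exact permutation p = 0.389, adjusted p = 0.389), while the Podxl count itself varied from 155105 to 544549. Clic5 stood slightly higher against Podxl in every Cosmc KO library. Its log2 ratio was -2.40, -2.28, -2.18, -2.43 and -2.39 in controls 1 to 5, against -2.02, -2.02, -2.01 and -2.11 in Cosmc KO 1 to 4. The groups did not overlap, and they differed by 0.30 (exact permutation p = 0.0159), which did not pass after adjustment (adjusted p = 0.0794).

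The ratios of the other linkers to Podxl spread widely among Cosmc KO. Slc9a3r2 averaged -3.40 ± 0.24 (SD, n = 5) in controls and -2.83 ± 0.43 (SD, n = 4) in Cosmc KO, a difference of 0.57 (exact permutation p = 0.0317, adjusted p = 0.0794). Slc9a3r1 averaged -6.49 ± 0.28 and -5.42 ± 1.02, a difference of 1.07 (exact permutation p = 0.0635, adjusted p = 0.106). Ezr averaged -4.44 ± 0.18 and -3.95 ± 0.78, a difference of 0.49 (exact permutation p = 0.206, adjusted p = 0.258). In all 3 the ratio of Cosmc KO 1 was within or below the control range, and that of Cosmc KO 2 was the highest of the 9 libraries.

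**Figure D4:**
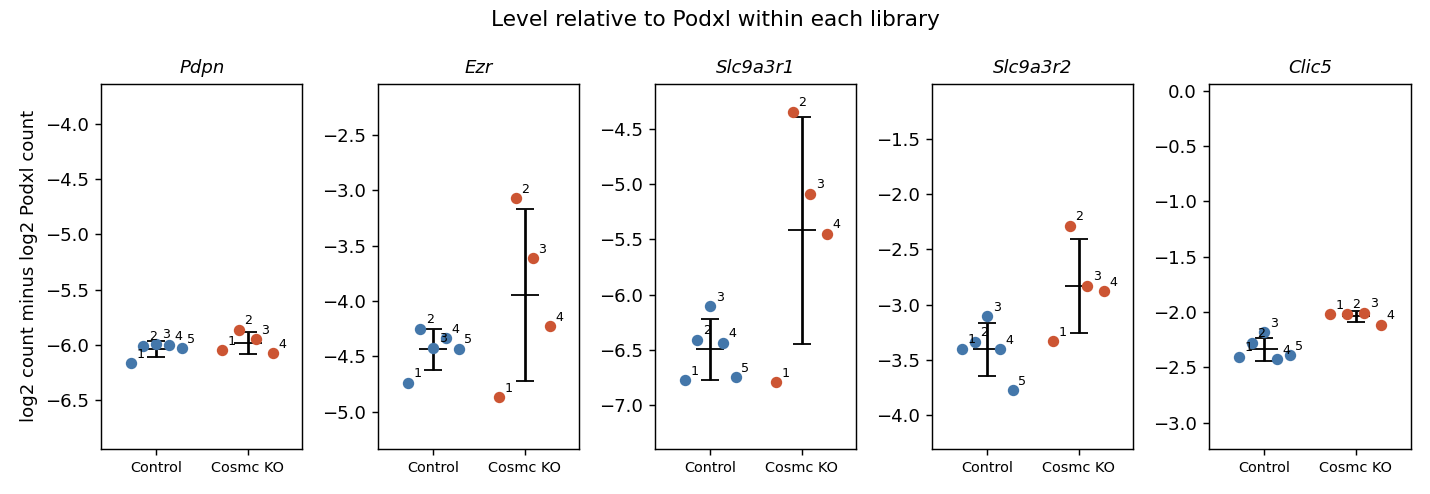
Log2 count of each gene minus the log2 count of Podxl in the same library, with library numbers, mean ± SD as bars, and axes of equal span. Pdpn stays between -6.17 and -5.86 in all 9 libraries, Clic5 is higher in all 4 Cosmc KO than in any control, and Ezr, Slc9a3r1 and Slc9a3r2 spread most in Cosmc KO.

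The sialomucins of the endothelium gave small differences. Cd34 (chromosome 1, 194938819 to 194961279, plus strand), the endothelial and progenitor relative of podocalyxin, read 20202, 17889, 23362, 23343 and 23015 in controls 1 to 5, against 24904, 20025, 19836 and 26144 in Cosmc KO 1 to 4. The groups overlapped, with Cosmc KO 1 and 4 above all controls. The level in Cosmc KO was 1.05 times that of controls (95% interval 0.866 to 1.28, limma adjusted p = 0.733). Reads of the antisense transcript Gm16897, whose exons overlap those of Cd34, cannot be set apart if counting ignored strand, and its mean listed count was 74.9.

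Emcn (chromosome 3, 137341067 to 137432185, plus strand), which coats capillary and venous endothelium, read 43946, 40651, 47484, 39087 and 41867 in controls 1 to 5. Cosmc KO 1 to 4 read 49236, 34016, 33026 and 39924, so Cosmc KO 1 was the highest and Cosmc KO 2 and 3 the lowest of all 9 libraries. The ratio of the group levels was 0.907 (95% interval 0.734 to 1.12, limma adjusted p = 0.520). The sign of this difference turned when the tubule level was a covariate (0.00) and without Cosmc KO 2 and 3 (0.06). Of 16 other endothelial markers 3 were called higher, the TGF-beta coreceptor gene Eng (0.86), Emp1 (0.78) and Egfl7 (0.52), and 1 lower, the tight junction gene Cldn5 (-0.80), with a median of 0.16, and the blocked fit called 3 higher and 2 lower. Their summed count ranged from 372325 to 467232 in controls and from 417231 to 512819 in Cosmc KO. Against the mean log2 level of these markers, Cd34 differed by -0.04 and Emcn by -0.25 between Cosmc KO and controls, values that were not tested. Over all 16764 genes the main test called 698 higher and 600 lower, and the blocked fit 1601 and 1189.

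Cd164 (chromosome 10, 41519414 to 41531048, plus strand), a sialomucin of endosomes and the surface of many cell types, had the lowest coefficient of variation of the 9 in both groups. It read 13019, 12868, 12281, 12300 and 12279 in controls 1 to 5, against 13143, 10530, 11801 and 11105 in Cosmc KO 1 to 4. The SD was 2.90% of the mean in controls and 9.67% in Cosmc KO, and 3 of the 4 Cosmc KO libraries lay below all controls. The ratio was 0.925 (95% interval 0.817 to 1.05, limma adjusted p = 0.379).

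Variation between animals was larger in Cosmc KO than in controls for 8 of the 9 genes. The SD of log2 values was 0.23 in controls and 0.58 in Cosmc KO for Podxl, 0.16 and 0.51 for Pdpn, 0.18 and 0.58 for Clic5, and 0.12 and 0.45 for Slc9a3r1. Slc9a3r2 had 0.24 in controls and 0.18 in Cosmc KO. The median over all genes tested was 0.20 in controls and 0.26 in Cosmc KO, and the difference in spread was not tested.

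The genes with the most similar pattern were found as the smallest root mean square difference of centred log2 counts over the 9 libraries, among 12092 genes with a mean count of at least 100. For Podxl they were Mme (0.04), the cell adhesion gene Alcam (0.05) and the Golgi gene Golim4 (0.06), and for Pdpn the heparan sulfate proteoglycan gene Sdc2, SEPT11 and Golim4 (each 0.07). Pdpn itself was at place 5 in the order around Podxl (0.08), and Clic5 at place 100 (0.17). Clic5 was nearest to Myom2 (0.08), the natriuretic peptide clearance receptor gene Npr3 (0.08) and the BMP receptor gene Bmpr1a (0.09). Ezr was nearest to Tpd52 (0.08), Clcn3 and Mmachc (each 0.10), and Slc9a3r1 to Mrpl4, Tysnd1 (each 0.07) and Pgp (0.08). Slc9a3r2 was nearest to Helz, Ppp1r13b and Zzef1 (each 0.07), Cd34 to Gnb4 (0.05), Bmp2k and Rab31 (each 0.07), Emcn to Glce, Cyp20a1 (each 0.05) and Parp6 (0.07), and Cd164 to Rab21 (0.02), Arcn1 and Trip12 (each 0.03). All 9 libraries enter each distance, so the groups and the tubule level are part of the pattern. The median distance to all candidates was 0.56 from Podxl and 0.22 from Cd164.

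Among other mucin-type surface proteins, 12 of 20 listed genes were measured, of which 1 was higher in Cosmc KO and 0 lower. The gene called was Mcam, an adhesion molecule of vascular and mesangial cells (11357 ± 872 to 16833 ± 1075, log2 fold change 0.57 ± 0.09, limma adjusted p = 0.00461). The median of the 12 was -0.03, and the blocked fit called 3 higher and 0 lower. Over all 16764 genes the blocked fit called 1601 higher and 1189 lower. A further 2 genes were named after their values were seen. Muc1, a transmembrane mucin of tubule epithelium, read 321.7 ± 82.6 and 753 ± 413 (limma adjusted p = 0.111), and Podxl2 (endoglycan), a relative of podocalyxin, read 198 ± 45.0 and 172 ± 35.6 (limma adjusted p = 0.555).

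Of 16 relatives and partners of the linkers 1 was higher, 0 lower, and the median was 0.17, while the blocked fit called 3 higher and 3 lower. The gene called was Clic1, a relative of Clic5 (6491 ± 399 to 8325 ± 507, 0.36 ± 0.07, limma adjusted p = 0.0202). The ERM relatives of ezrin went in opposite directions without passing the test. Moesin (Msn), which endothelial and blood cells use, read 23157 ± 1739 and 27681 ± 1340 (0.26 ± 0.09, limma adjusted p = 0.101), and the groups did not overlap. Radixin (Rdx), added after its values were seen, read 19868 ± 1673 and 15888 ± 2502 (-0.33 ± 0.12, limma adjusted p = 0.108). Of 7 measured podoplanin partners 0 were called in either direction (median 0.26), and the most abundant after Msn was Arhgef1 (5714 ± 477 and 5937 ± 722, limma adjusted p = 0.756). By unadjusted p under 0.05, 5 of these 7 were higher in the limma test, DESeq2 called 3 higher, the blocked fit 2 and edgeR 0. Over all 16764 genes in limma, 2169 were higher at that unadjusted threshold, and the blocked fit called 1601 higher and 1189 lower. DESeq2 called 1447 of 16867 genes higher, and edgeR 721 of 16762.

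Markers of other cells that can hold these proteins were also counted. Of 5 lymphatic endothelial markers, a cell type that carries podoplanin, 1 was lower (Reln, -0.96) and 0 higher. Their summed count ranged from 3481 to 4948 in controls and from 4325 to 5194 in Cosmc KO. Most of this sum was Flt4, which averaged 3724 in controls and 4329 in Cosmc KO. Prox1, Reln, Lyve1 and Mmrn1 averaged 317, 87.1, 75.2 and 11.5 in controls, and 196, 45.2, 70.9 and 19.4 in Cosmc KO. Of 8 parietal epithelial markers 4 were higher, among them Aldh1a2 (1.96), Cldn1 (1.70) and Cdh6 (1.23), and 1 was lower (Ncam1, -0.97), with sums of 8063 to 10603 and 15958 to 19830. Of 8 mesangial markers 1 was higher (Serpine2, 0.81), with sums of 97278 to 135701 and 113208 to 169615. Of 10 immune markers 3 were higher, C1qa (2.58), C1qb (2.38) and Csf1r (1.14), with sums of 4865 to 13118 and 10367 to 13975, and the blocked fit called 7 higher. Over all 16764 genes the main test called 698 higher and 600 lower, and the blocked fit 1601 and 1189. No marker of these lists was at 0 in all libraries, and their part in the counts of the 9 genes was not tested.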

How the data were processed

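Poly(A) RNA of isolated glomeruli was sequenced in 9 libraries, 5 control and 4 Cosmc KO, grouped by the labels' genotypes. Reads were aligned with STAR 2.5.2b to GRCm38 and counted with featureCounts of Subread 1.5.2, and DESeq2 was used, per the submitters' processing notes; strand, annotation and filters are not given in the sources used here. The authors deposited a signal per gene and library, a read count divided by 1 size factor per library, called normalized count here. Dividing by the smallest step gave whole reads within 0.01 for 100% of values, 31512284 to 58074717 reads per library. For control 3 the step lay so near 1 that it could not be checked apart, so count tests were also run without it. The authors' deposited table also gives log2 fold changes, p-values and adjusted p-values, and a Wald score that was not used.

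From these values, limma 3.58.1 in R 4.3.3 (trended empirical Bayes) tested log2(value + 1) over 16764 genes that reached 10 in 4 or more libraries, with Benjamini-Hochberg adjustment and a threshold of 0.05. Fold changes are on that scale. Recovered reads were tested with edgeR 4.0.16 and DESeq2 1.42.0 as alternatives. The other alternatives were a block on the replicate number, TMM scaling, pseudocounts of 0.5 and 4, no filter or 1 CPM, Cre-carrying controls only, tubule level or age as a covariate, and leaving out libraries. The blocked (paired) fit leaves out control 5, which has no Cosmc KO animal of its number. The limma script was tested on simulated counts with the same dispersion in both groups. The spread of these data differed between the groups, so that test gives no error rate for them. Same-numbered animals share an age, and their deviations from the group means correlated in all 4 pairs (0.54, 0.51, 0.34 and 0.27, each above 0.1), so the numbers were taken to pair them. Some pairs of different numbers correlated as strongly (control 2 with Cosmc KO 3 0.53, control 5 with Cosmc KO 1 0.34 and with Cosmc KO 4 0.33, control 3 with Cosmc KO 2 0.31), so the correlations do not set the same-numbered pairs apart. Ratios to Podxl were tested by exact permutation. P-values set the difference of group means against the spread between these animals.

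Genes named were the 9, C1galt1c1, up to 4 called genes with the largest fold change per list (or the 2 most abundant where none was called), and the 3 nearest genes in pattern. The podocyte markers that fell less than Podxl or rose, and the lymphatic markers other than Reln, were named after their values were seen. Members and lists were chosen with earlier results of these data known.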

Additional observations from a re-analysis of the deposited data

Results flagged for a closer look

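Of 28 groups of values examined for a library far from the rest of its group, 3 were picked out, where chance gives about 1 in 20. The Ezr count of control 3, a Cosmc Y/+ animal without Cre, was 16862, the lowest of the 5 controls, and its gap to the next control was 0.713 of the group's range. The log2 ratio of Pdpn to Podxl was lowest among controls in control 1, at -6.17, with a gap of 0.772 of the range. The log2 ratio of Clic5 to Podxl was lowest among Cosmc KO in Cosmc KO 4, at -2.11, with a gap of 0.843 of the range, and still lay above all controls.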

How the results depend on the processing

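Direction and call were kept in 192 of 207 alternatives for the 9 genes and in 61 of 65 for the ratios to Podxl. In each of these the call kept was that of not passing. The 65 include the paired test of the ratios, which could not pass. Pdpn was called in 5 alternatives and Podxl in 4. With the replicate block, Podxl was -0.78 and Pdpn -0.72, both called, and the block changed no other call among the 9; all genes called were 1601 higher and 1189 lower, against 698 and 600. DESeq2 called Podxl (-0.72) and Pdpn (-0.68), with 1447 genes higher and 1252 lower, and without control 3 (chosen after seeing the data) -0.78 and -0.72, with 1251 and 954. With TMM scaling Pdpn was called at -0.76. Cre-carrying controls alone left 284 higher and 154 lower, and the tubule covariate 314 lower. Without Cosmc KO 2 and 3 together, chosen after seeing the data, 224 were higher and 81 lower. The sign turned under the tubule covariate for Emcn (0.0027) and Slc9a3r1 (-0.015), and without Cosmc KO 2 and 3 for Emcn (0.061) and Slc9a3r1 (-0.019). Leaving out 1 library at a time gave 348 to 2439 genes higher and 175 to 2445 lower, both highest without Cosmc KO 1 and lowest without Cosmc KO 3. Podxl then ranged from -1.04 to -0.57, Pdpn from -0.97 to -0.56, Clic5 from -0.75 to -0.29 and Slc9a3r1 from 0.14 to 0.49, and these 4 were called without Cosmc KO 1. The log2 ratios to Podxl ranged from 0.20 to 0.80 for Ezr, 0.72 to 1.53 for Slc9a3r1, 0.39 to 0.74 for Slc9a3r2 and 0.27 to 0.34 for Clic5. All 4 passed without Cosmc KO 1 (adjusted exact permutation p = 0.0223). The smallest exact permutation p possible there is 0.0179, and all 4 sat at it before adjustment. With 4 pairs the paired test of a ratio cannot go below an exact p of 0.125. The causes were not tested. At 31512284 reads or more, counting error is small beside the spread between animals for all 9 genes, and 4 Cosmc KO animals limit the precision.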
